A study of Mus musculus with 8 samples.

Results

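The genes described here are 35 genes of mitochondrial fatty acid oxidation and of the transcription factor PPAR-alpha, out of 23386 genes in the deposited kidney expression table. They were chosen by symbol, from what they are known to do, and all 35 were found in the table. They cover the uptake and activation of fatty acids and the carnitine shuttle (9 genes), the acyl-CoA dehydrogenases (7), electron transfer to the respiratory chain (3), the later steps of the oxidation spiral (5), auxiliary enzymes for unsaturated chains (3), acyl-CoA thioesterases (2), regulators (2) and further PPAR-alpha targets (4). Messenger RNA was sequenced from whole left kidneys of 4 Ctrp1-/- mice (KO) and 4 wild-type littermates (WT), 1 library per kidney, to ask what the loss of Ctrp1 does to gene expression in the aged kidney. All animals were 49 weeks old, of the C57BL/6J strain and kept with free access to food. The KO mice carry the C1qtnf1tm1Lex allele, in which 679 bases of exon 4, coding sequence and a part of the 3′ untranslated region, were removed by homologous recombination. The allele was made in 129S5/Sv stem cells, and more than 6 generations of backcrossing to C57BL/6J followed. Both genotypes came from crosses of heterozygous mice. The deletion is inherited and not limited to the kidney, so these libraries cannot separate an effect within the kidney from one that starts in another organ.

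Fatty acids are the main fuel of the proximal tubule, the most abundant cell type of the kidney cortex. They enter the cell, are joined to coenzyme A, cross the mitochondrial membranes as carnitine esters, and are then shortened step by step by a dehydrogenase, a hydratase, another dehydrogenase and a thiolase. PPAR-alpha is a nuclear receptor that binds fatty acids and, as a partner of RXR, binds a direct repeat in the DNA and raises the transcription of many genes of this pathway. Its activity is known to increase in fasting, when fatty acids reach the tissue from fat stores. CTRP1, the product of C1qtnf1, is a secreted protein related to adiponectin.

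Reads assigned to genes, as recovered from FPKM, numbered 15027400 to 19256378 in KO libraries and 15891146 to 17700158 in WT libraries. Expression is given as FPKM, a read density that the authors had normalized for gene length and library depth, divided here by a scaling factor per library of 0.978 to 1.03 (scaled FPKM). C1qtnf1 itself measured 0.188, 0.575, 0.228 and 0.311 scaled FPKM in KO kidneys and 3.85, 2.74, 3.18 and 4.75 in WT kidneys (limma adjusted p = 0.000768), which fits the labels. Xist was at most 0.0169 scaled FPKM in each of the 8 libraries and the Y-linked Ddx3y at 9.48 to 13.2, so all 8 animals read as male. WT replicate 3 stood apart, with 4.73 scaled FPKM of the tubule injury gene Havcr1 against 0.482 to 0.656 in KO libraries, and WT replicate 2 had 1.89. The KO group was not uniform either. Another injury gene, Lcn2, peaked in KO replicate 3 with 4.07, above the 3.40 of WT replicate 3. The remaining KO values of Lcn2 spanned 0.352 to 0.644. KO replicate 3 also had 446 of the principal cell gene Aqp2, the rest of its group 108 to 170. Slc22a7, a straight-segment marker, reached 61.1 for KO replicate 1, the rest of its group 10.6 to 16.3. Log2 fold changes printed below that moved by over 1.5 times without WT replicates 2 and 3 are also given without them, a choice made after seeing the data. The libraries are of whole kidney, so fewer cells of a type and less RNA per cell cannot be told apart.

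PPAR-alpha with RXR binds 2 copies of AGGTCA set 1 base apart, the motif AGGTCANAGGTCA. Of the 35 genes, 30 had a promoter in RefSeq (build GRCm38.p6), from 250 bases before the transcription start used in that table to 50 bases after it. Both strands were searched, and overlaps with other motifs were not considered. With at most 2 mismatches the motif was present in 6 of the 30 promoters (20.0%), against 4.40% of the 27025 genes with a promoter in that table. With at most 1 mismatch it was present in 1 of 30 (3.33%), against 0.644%. Because the 35 genes were chosen partly as PPAR-alpha targets, a higher share among them is no independent finding. The 6 stretches are shown because they place this motif beside genes described below. Each is given 5′ to 3′ on the strand of its gene, with the 13 bases of the match in capitals.
Fabp1, chr6:71199804-71199832, plus strand: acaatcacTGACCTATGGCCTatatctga
Cd36, chr5:17835939-17835967, minus strand: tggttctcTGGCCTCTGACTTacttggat
Echs1, chr7:140116484-140116512, minus strand: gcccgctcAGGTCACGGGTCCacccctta
Etfa, chr9:55512300-55512328, minus strand: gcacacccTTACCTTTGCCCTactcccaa
Plin2, chr4:86670264-86670292, minus strand: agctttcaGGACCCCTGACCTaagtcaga
Slc25a20, chr9:108662134-108662162, plus strand: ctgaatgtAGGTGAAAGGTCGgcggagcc
For Cd36 the start in the RefSeq table lies inside the longer gene span of the deposited table given below, so its stretch is not at the outermost start. The stretch at Fabp1 has 1 mismatch and the other 5 have 2. In Fabp1, Cd36, Etfa and Plin2 the match is to the opposite strand, which is why the capitals there read as the reverse complement. These matches are letters in a window and were not shown to be bound in these kidneys. With at most 2 mismatches the motif was in 2 of 11 promoters of genes lower in KO kidneys at an unadjusted p under 0.05 (limma, below). It was in 4 of the 19 other promoters. Acaa2, Vnn1, Angptl4 and Crat, also lower at that threshold, had no promoter in that table and are not counted.

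None of the 35 genes differed between KO and WT kidneys at an adjusted p under 0.05 (limma, Benjamini-Hochberg over 14022 genes), a threshold that 7 genes, 0.0499% of those tested, passed. At an unadjusted p under 0.05, 15 of the 35 were lower in KO kidneys, against 8.26% of all genes tested, and 2 were higher, against 7.18%. The log2 fold change, KO over WT on the scale of log2(scaled FPKM + 0.5), was below 0 for 29 genes, against 50.4% of all genes. It ran from -0.75 to 0.51 with a median of -0.10, where the median of all genes was -0.00. The lowest adjusted p among the 35 genes was 0.151, for Cd36. In 7 genes every KO library was below every WT library (4.28% of all genes did this), and in 2 genes every KO library was above every WT library (4.34%). Those 7 were Acaa2, Vnn1, Eci1, Acot1, Cpt2, Acad11 and Hadh, and the 2 were Cd36 and Acadsb. Without WT replicates 2 and 3, 8 genes were lower at an unadjusted p under 0.05, where 9.42% of all genes were, and the median of the 35 was again -0.10.

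**Figure D1:**
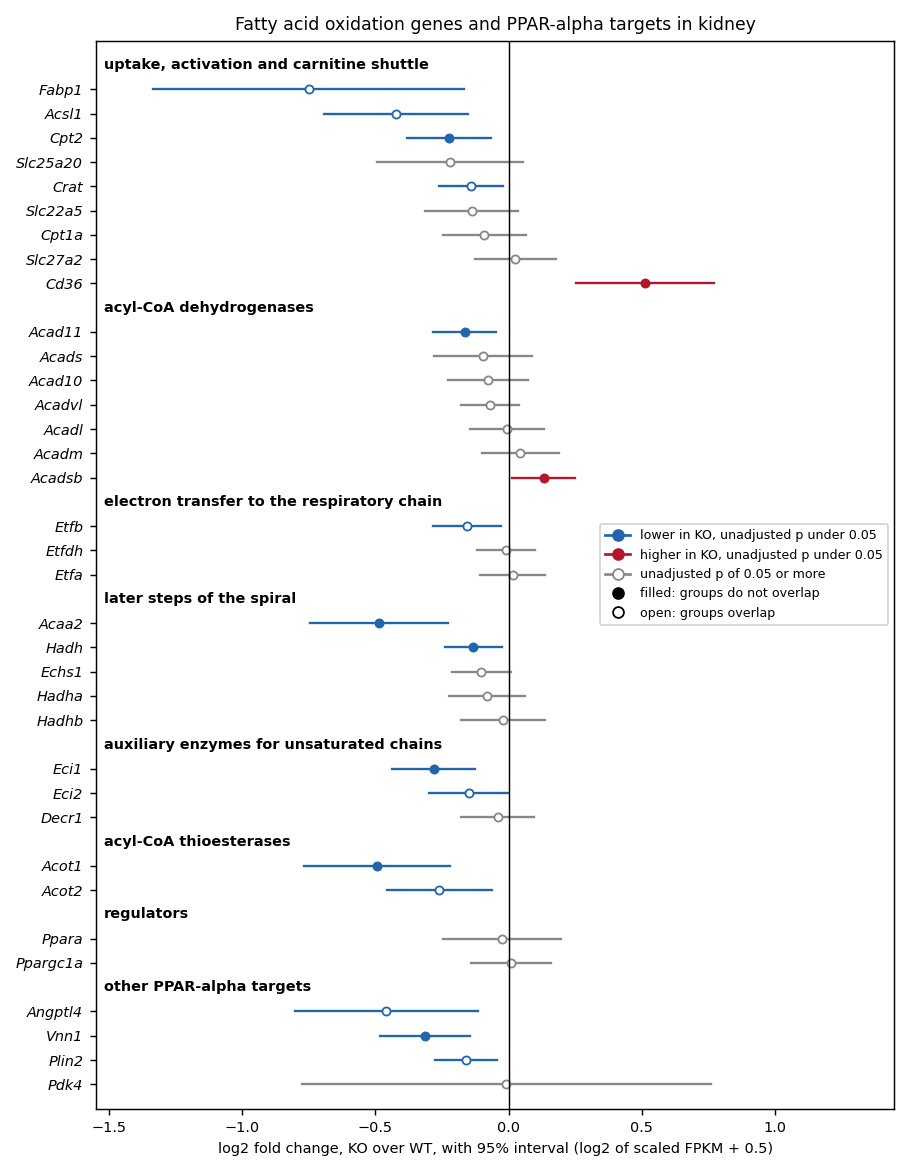
Log2 fold change of each of the 35 genes, KO over WT on the log2(scaled FPKM + 0.5) scale, with its 95% confidence interval from limma, grouped by role. Points left of 0 are lower in KO kidneys: 29 of 35 lie there, and the intervals of 15 of them do not reach 0, while those of Cd36 and Acadsb lie wholly above 0.

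The 35 genes differed widely in level. Over all 8 libraries, in FPKM, which is per length, Slc27a2 was highest at 1094 scaled FPKM, followed by Etfb at 402, Acadm at 331, Etfa at 322 and Acaa2 at 169.7. Slc27a2 stood above all others in every library, while the ranges over the libraries of Etfb and Acadm, and of Acadm and Etfa, overlapped. The lowest were Ppargc1a, Pdk4 and Fabp1, and Fabp1 had a mean of 1.44 with only 6 to 25 reads in a library. Summed over the 35 genes the level was 3919 ± 228 scaled FPKM in KO kidneys and 4101 ± 102 in WT kidneys (SD, n = 4 each), and the ranges, 3710 to 4203 and 4027 to 4250, overlapped. The 35 genes took 0.951% to 1.04% of the reads assigned to genes in KO libraries and 0.998% to 1.06% in WT libraries.

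At the plasma membrane, Cd36 and the other uptake genes did not differ in the same way. Cd36, the fatty acid translocase that brings long-chain fatty acids into the cell (chr5:17781690-17888959, mm10), measured 120.1, 98.4, 94.4 and 87.8 scaled FPKM in KO kidneys, against 75.8, 67.8, 57.6 and 79.0 in WT kidneys. All 4 KO libraries were above the highest WT library, and the mean was 100.2 ± 14.0 in KO and 70.0 ± 9.54 in WT kidneys. Its log2 fold change was 0.51 (SE 0.12, 95% interval 0.25 to 0.77, limma adjusted p = 0.151), the largest of the 35 in the upward direction. Slc27a2, an acyl-CoA synthetase and transporter and the most abundant of these genes, had 1224, 1018, 1051 and 1127 scaled FPKM in KO kidneys and 1086, 1111, 1024 and 1112 in WT kidneys. Its groups overlapped throughout, with a log2 fold change of 0.03 (0.0043 without WT replicates 2 and 3) and an interval of -0.13 to 0.18. Slc22a5, the plasma membrane carnitine transporter, averaged 109 ± 11.7 scaled FPKM in KO kidneys and 119.6 ± 5.75 in WT kidneys (limma adjusted p = 0.415), and shares 18.0% of its 75-base windows with Slc22a21.

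Inside the cell, the messengers of Acsl1 and Fabp1 stood lower in KO kidneys without passing the test. Acsl1, the long-chain acyl-CoA synthetase that traps fatty acids as coenzyme A esters, measured 27.1, 30.5, 25.4 and 28.4 scaled FPKM in KO kidneys, against 34.0, 40.5, 46.8 and 30.4 in WT kidneys. WT replicates 2 and 3 were the highest and WT replicate 4 lay within the KO range. The log2 fold change was -0.42 (SE 0.12, limma adjusted p = 0.190), and -0.21 without WT replicates 2 and 3. Fabp1, the liver-type fatty acid binding protein, had 1.11, 0.998, 0.833 and 0.657 scaled FPKM in KO kidneys, against 2.05, 2.24, 2.82 and 0.785 in WT kidneys. WT replicate 4 was as low as the KO libraries, and with so few reads the log2 fold change of -0.75 has a wide interval, -1.34 to -0.17; it was -0.38 without WT replicates 2 and 3.

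Of the carnitine shuttle genes, Cpt2 and Crat were lower in KO kidneys at an unadjusted p under 0.05, and Cpt1a and Slc25a20 were not. Cpt1a, the outer-membrane carnitine palmitoyltransferase that sets the rate of entry, had 142, 129, 116 and 144 scaled FPKM in KO kidneys and 144, 141, 142 and 136 in WT kidneys. Only KO replicates 2 and 3 were below the WT range, and the log2 fold change was -0.09 with an interval of -0.25 to 0.06. Cpt2, which releases the acyl group again inside the mitochondrion, had 64.7, 55.8, 57.1 and 63.2 scaled FPKM in KO kidneys, against 66.4, 78.6, 68.6 and 68.0 in WT kidneys. Every KO library was below every WT library, by a log2 fold change of -0.22 (SE 0.07, limma adjusted p = 0.217). Slc25a20, the carnitine-acylcarnitine carrier between them, averaged 34.1 ± 4.29 scaled FPKM in KO kidneys and 40.0 ± 6.50 in WT kidneys; its log2 fold change of -0.22 was -0.02 without WT replicates 2 and 3. Crat, carnitine acetyltransferase, averaged 32.1 ± 1.38 in KO and 35.4 ± 1.72 in WT kidneys, a log2 fold change of -0.14 (limma adjusted p = 0.266).

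**Figure D2:**
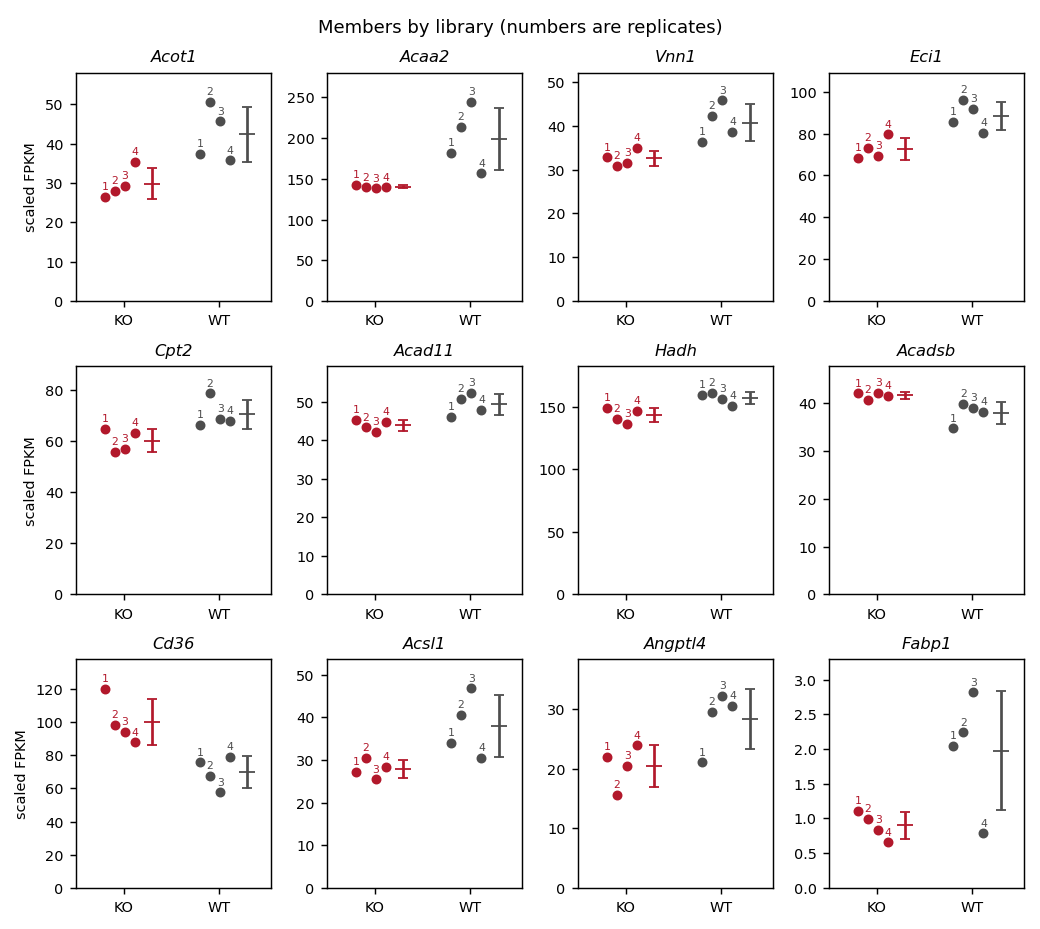
Scaled FPKM of 12 of the 35 genes in each library, KO left of WT, with the mean and SD of each genotype (n = 4) on linear axes that start at 0. Cd36 is higher in all 4 KO libraries, Acaa2, Eci1, Acot1, Cpt2 and Vnn1 are lower in all 4, and the WT libraries of Acaa2, Acsl1 and Acot1 are more spread than the KO libraries.

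The acyl-CoA dehydrogenases, which take the first pair of electrons from each chain length in turn, showed small differences in both directions. Of these 7 genes, 1 was lower and 1 higher at an unadjusted p under 0.05, and their median log2 fold change was -0.07. Acadm, the medium-chain enzyme and the most abundant dehydrogenase, had 366, 329.6, 313 and 335 scaled FPKM in KO kidneys and 318, 338, 302 and 345 in WT kidneys. The groups overlapped, with an interval of -0.10 to 0.19 on the log2 scale. For Acadl, the long-chain enzyme, the interval was -0.15 to 0.13, and for Acadvl, the very-long-chain enzyme, -0.18 to 0.04. These intervals leave room for small changes in either direction, so equal levels were not shown. Acads, the short-chain enzyme, averaged 83.0 ± 3.19 scaled FPKM in KO kidneys and 89.3 ± 10.6 in WT kidneys. Acad10, a less studied member of the family, averaged 22.6 ± 1.63 in KO and 23.8 ± 1.57 in WT kidneys. Of its 75-base windows 12.4% occur in Acad12, and of those of Acadvl 14.0% occur in Dvl2, so these values are less certain.

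Acad11 and Acadsb, the dehydrogenases whose groups did not overlap, differed in direction. Acad11, which acts on very long chains and on hydroxylated acids, measured 45.2, 43.3, 42.2 and 44.8 scaled FPKM in KO kidneys, against 46.1, 50.7, 52.4 and 47.9 in WT kidneys. All KO libraries were below all WT libraries (log2 fold change -0.16, limma adjusted p = 0.218), and the log2 fold change was -0.10 without WT replicates 2 and 3. Acadsb, which oxidizes the short branched chains from isoleucine, measured 42.1, 40.7, 42.1 and 41.5 scaled FPKM in KO kidneys, against 34.7, 39.9, 39.0 and 38.2 in WT kidneys. All KO libraries were above all WT libraries, though by a log2 fold change of only 0.13 (limma adjusted p = 0.281), and of 0.06 with GC and length trends removed. Fgfr2, at 4.33 scaled FPKM, spans it on the opposite strand and could share its reads, since no source used here says that strand was kept.

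Electrons from these dehydrogenases pass through the electron transfer flavoprotein, a dimer of Etfa and Etfb, to its membrane dehydrogenase Etfdh. Etfb measured 399.8, 379, 356 and 386 scaled FPKM in KO kidneys, against 446, 437, 399 and 411 in WT kidneys. The highest KO library lay just above the lowest WT library (log2 fold change -0.16, limma adjusted p = 0.260, and -0.10 with GC and length trends removed). Its partner Etfa averaged 324 ± 20.3 scaled FPKM in KO kidneys and 320.5 ± 8.28 in WT kidneys, and Etfdh averaged 49.2 ± 1.94 in KO and 49.5 ± 1.78 in WT kidneys. Etfb shares 66.3% of its 75-base windows with the annotated gene Gm45233 (GENCODE vM21), so its reads could be split between them and its value is uncertain.

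Among the later steps of the spiral, the groups overlapped for the trifunctional protein and did not overlap for Hadh and Acaa2. Hadha and Hadhb, the subunits of the trifunctional protein for long chains, lie 85 bases apart on chromosome 5. Hadha averaged 55.7 ± 1.94 scaled FPKM in KO kidneys and 59.0 ± 4.95 in WT kidneys, and Hadhb averaged 40.0 ± 1.32 in KO and 40.7 ± 4.15 in WT kidneys. Neither gene had an unadjusted p under 0.05. Echs1, the short-chain enoyl-CoA hydratase, had a log2 fold change of -0.10 (interval -0.21 to 0.01), and of -0.061 without WT replicates 2 and 3. Hadh, the 3-hydroxyacyl-CoA dehydrogenase for medium and short chains, measured 149, 140.2, 136 and 147 scaled FPKM in KO kidneys, against 159.5, 161, 156 and 151 in WT kidneys. The groups did not overlap, and the log2 fold change was -0.13 (limma adjusted p = 0.251).

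Acaa2, the mitochondrial thiolase that splits off acetyl-CoA in the last step (chr18:74779197-74806207, mm10), carried most of the difference in this group. It measured 143, 139.7, 138 and 139.6 scaled FPKM in KO kidneys, against 182, 214, 245 and 157 in WT kidneys. The 4 KO libraries were nearly equal (140.1 ± 1.78) and the 4 WT libraries were spread (199 ± 38.3), with WT replicate 4 nearest to KO. The log2 fold change was -0.49 (SE 0.12, interval -0.75 to -0.23, limma adjusted p = 0.159), and -0.27 without WT replicates 2 and 3. Summed over the 5 genes of the later steps, the level was 417 to 443 scaled FPKM in KO kidneys and 459 to 569 in WT kidneys, without overlap.

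The auxiliary enzymes, which move or reduce double bonds that the spiral cannot handle, included 2 isomerases that stood lower in KO kidneys. Eci1, the mitochondrial enoyl-CoA isomerase (chr17:24426683-24439316), measured 68.4, 73.0, 69.4 and 79.6 scaled FPKM in KO kidneys, against 85.5, 95.9, 91.7 and 80.5 in WT kidneys. KO replicate 4 was just below WT replicate 4, so the groups did not overlap, and the log2 fold change was -0.28 (SE 0.07, limma adjusted p = 0.159). Eci2, the isomerase shared between mitochondria and peroxisomes, averaged 44.4 ± 3.68 scaled FPKM in KO kidneys and 49.2 ± 2.64 in WT kidneys. Decr1, the dienoyl-CoA reductase, averaged 67.0 ± 3.50 in KO and 69.0 ± 4.79 in WT kidneys.

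The thioesterases Acot1 and Acot2, which release free fatty acids from coenzyme A in the cytosol and in mitochondria and are PPAR-alpha targets in mouse liver, were both lower at an unadjusted p under 0.05. Acot1 (chr12:84009502-84017670) measured 26.4, 28.1, 29.3 and 35.4 scaled FPKM in KO kidneys, against 37.3, 50.6, 45.7 and 35.8 in WT kidneys. The groups did not overlap, though KO replicate 4 and WT replicate 4 were almost equal. The log2 fold change was -0.49 (SE 0.12, limma adjusted p = 0.159), and -0.30 without WT replicates 2 and 3. Acot2, 15628 bases away on the same chromosome, measured 16.3, 17.2, 14.3 and 17.9 scaled FPKM in KO kidneys, against 18.7, 22.3, 20.4 and 17.6 in WT kidneys. WT replicate 4 lay inside the KO range (log2 fold change -0.26, limma adjusted p = 0.235, and -0.15 without WT replicates 2 and 3). The pair is nearly identical in part: 15.5% of the 75-base windows of Acot1 and 21.2% of those of Acot2 occur in another Acot gene, so reads could be shared and the 2 values are not independent.

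For the regulators no difference in messenger level was detected. Ppara measured 23.0, 23.6, 20.4 and 28.1 scaled FPKM in KO kidneys and 24.5, 21.4, 27.1 and 23.4 in WT kidneys, and the groups overlapped throughout (log2 fold change -0.02, interval -0.25 to 0.20, limma adjusted p = 0.929). Ppargc1a, the coactivator PGC-1alpha that works with PPAR-alpha and promotes mitochondrial gene expression, measured 11.6, 13.3, 13.5 and 14.0 in KO kidneys and 12.2, 13.2, 13.8 and 12.8 in WT kidneys (log2 fold change 0.01, interval -0.14 to 0.16, and 0.065 without WT replicates 2 and 3). Neither interval shows that the levels were equal.

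Of the 4 further PPAR-alpha targets, 3 were lower at an unadjusted p under 0.05 and the fourth, Pdk4, varied more between animals of a genotype than between genotypes. Vnn1, a pantetheinase that returns a building block of coenzyme A (chr10:23894688-23905343), measured 32.8, 30.9, 31.6 and 34.9 scaled FPKM in KO kidneys, against 36.2, 42.3, 45.7 and 38.5 in WT kidneys. Every KO library was below every WT library (log2 fold change -0.31, SE 0.08, limma adjusted p = 0.159, and -0.20 without WT replicates 2 and 3). Angptl4, a secreted inhibitor of lipoprotein lipase, measured 22.0, 15.6, 20.5 and 24.0 scaled FPKM in KO kidneys, against 21.1, 29.6, 32.3 and 30.6 in WT kidneys. WT replicate 1 lay within the KO range (log2 fold change -0.46, limma adjusted p = 0.228). Plin2, the coat protein of lipid droplets, measured 54.9, 51.1, 50.2 and 51.3 scaled FPKM in KO kidneys, against 58.1, 61.5, 57.9 and 54.7 in WT kidneys. Here KO replicate 1 lay just above WT replicate 4, the one crossing between the groups (log2 fold change -0.16, limma adjusted p = 0.218).

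Pdk4, the kinase that shuts off pyruvate dehydrogenase and so spares glucose when fatty acids are burned, measured 22.4, 11.1, 8.05 and 9.14 scaled FPKM in KO kidneys and 6.31, 15.9, 15.6 and 12.0 in WT kidneys. The highest value was KO replicate 1 and the lowest WT replicate 1. Its log2 fold change of -0.01 (0.40 without WT replicates 2 and 3) has an interval of -0.78 to 0.76, the widest of the 35 genes. With 4 animals a group, changes in either direction within those bounds are not excluded.

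The difference between genotypes was uneven over the libraries. Of the 35 genes, 21 (60.0%) had their highest value in WT replicate 2 or 3, where 26.0% of all genes tested did, and 22 (62.9%) had their lowest in KO replicate 2 or 3, where 25.2% of all genes did. As a mean over the 35 genes of the log2 deviation from each gene's average, KO libraries stood at 0.01, -0.10, -0.15 and -0.03 and WT libraries at -0.01, 0.15, 0.14 and 0.01. KO replicate 1 therefore lay level with WT replicates 1 and 4, and the gap between genotypes was between KO replicates 2 and 3 on one side and WT replicates 2 and 3 on the other. Among the 15 genes lower at an unadjusted p under 0.05, the lowest WT library was WT replicate 4 for 8 and WT replicate 1 for 5. Without WT replicates 2 and 3, 7 of these 15 were still lower at an unadjusted p under 0.05, and 23 of the 35 had a log2 fold change below 0.

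**Figure D3:**
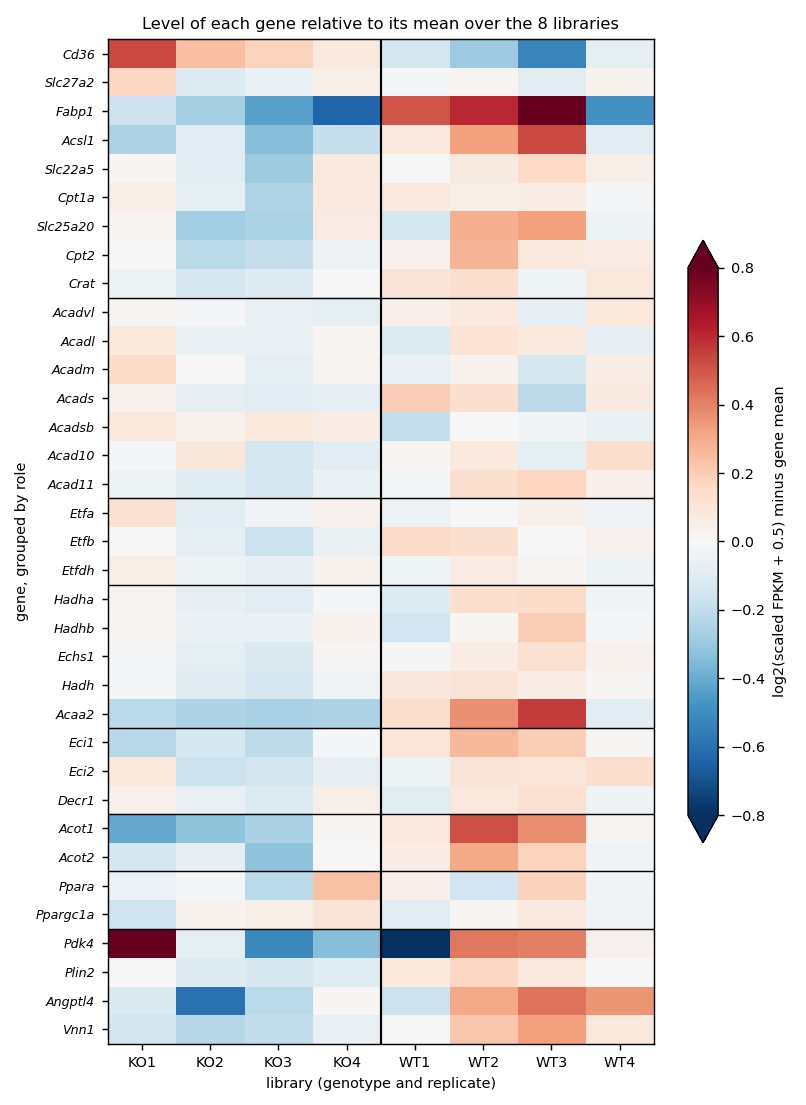
Deviation of each of the 35 genes (rows, grouped by role) in each library (columns, KO left of WT) from the gene's mean over all 8 libraries, on the log2(scaled FPKM + 0.5) scale. WT replicates 2 and 3 hold the highest value of 21 genes, KO replicates 2 and 3 the lowest of 22, and the Cd36 row runs the other way.

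Outside the 35 genes, 96 further genes of lipid handling were listed and 88 were abundant enough to test. None passed an adjusted p under 0.05 in the limma test, and the median log2 fold change was -0.05. At an unadjusted p under 0.05, 22 (25.0%) were lower, against 8.26% of all genes tested. By the same threshold 6 (6.82%) were higher, near the 7.18% of all genes. Among 22 genes of peroxisomal and omega oxidation 9 were lower and 2 higher, among 19 of lipid uptake, storage and lipolysis 8 were lower and none higher, and among 12 ketone body genes and other PPAR-alpha targets 4 were lower and 2 higher. Among 15 acyl-CoA enzymes of branched-chain and amino acid breakdown 1 was lower and 1 higher, with a median of 0.00. Each is 6.67% of that list, near the shares of all genes. Of 20 transcriptional and kinase regulators none was lower and 1 higher. Among nuclear receptors related to PPAR-alpha, Pparg had a log2 fold change of -0.01, Ppard of -0.17, the shared partner Rxra of -0.07 and Hnf4a of -0.02. Without WT replicates 2 and 3 the values were 0.050 for Pparg, -0.14 for Rxra and -0.14 for Hnf4a.

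Acaa1b, a peroxisomal thiolase, measured 128, 145, 140.3 and 168 scaled FPKM in KO kidneys, against 207, 258, 261 and 190.1 in WT kidneys. All KO libraries were below all WT libraries (log2 fold change -0.65, limma adjusted p = 0.108), and its mitochondrial counterpart Acaa2 has the pattern given above. Cyp4a10, a fatty acid omega-hydroxylase, measured 51.9, 62.7, 70.3 and 75.3 scaled FPKM in KO kidneys, against 78.7, 134, 155 and 91.4 in WT kidneys. Every KO library was again the lower (log2 fold change -0.77, limma adjusted p = 0.173, and -0.39 without WT replicates 2 and 3).

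The 7 other pathway genes named for a small p and groups without overlap were Retsat, Slc27a1, Mgll, Pnpla2, Plin3 and Ech1, all lower, and Crot, higher. Retsat, a retinol saturase, and Slc27a1, a fatty acid transporter, each had a log2 fold change of -0.35 (limma adjusted p = 0.108 for Retsat and 0.116 for Slc27a1). Mgll and Pnpla2 are the lipases at the end and the start of triglyceride breakdown, and their log2 fold changes were -0.35 for Mgll and -0.22 for Pnpla2. On the same scale Plin3, a lipid droplet coat protein, stood at -0.23, and Ech1, a dienoyl-CoA isomerase, at -0.22. Under the alternatives that kept all 8 libraries, the value ran from -0.23 to -0.14 for Pnpla2 and from -0.22 to -0.13 for Ech1. The ranges were -0.37 to -0.30 for Mgll and -0.23 to -0.20 for Plin3. GC content was 57.0% for Pnpla2, 55.3% for Mgll and 54.4% for Ech1, a range where the median of all genes was below 0. Crot, which makes carnitine esters in peroxisomes, measured 131, 117, 94.2 and 105 scaled FPKM in KO kidneys, against 79.6, 88.4, 66.0 and 92.5 in WT kidneys. All KO libraries were above all WT libraries, as for Cd36 (log2 fold change 0.45, limma adjusted p = 0.176).

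Cyp4a14 and Nudt19 were chosen after their values were seen. Cyp4a14, an omega-hydroxylase next to Cyp4a10, measured 4.09, 6.63, 11.0 and 14.4 scaled FPKM in KO kidneys, against 11.0, 51.9, 135 and 17.2 in WT kidneys. WT replicates 2 and 3 set its log2 fold change of -2.00 (limma adjusted p = 0.239), which was -0.72 without them. Nudt19, a peroxisomal coenzyme A hydrolase, measured 329, 271, 308 and 331 scaled FPKM in KO kidneys, against 202, 223, 215 and 297 in WT kidneys, with only KO replicate 2 below WT replicate 4 (log2 fold change 0.41, limma adjusted p = 0.188).

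**Figure D4:**
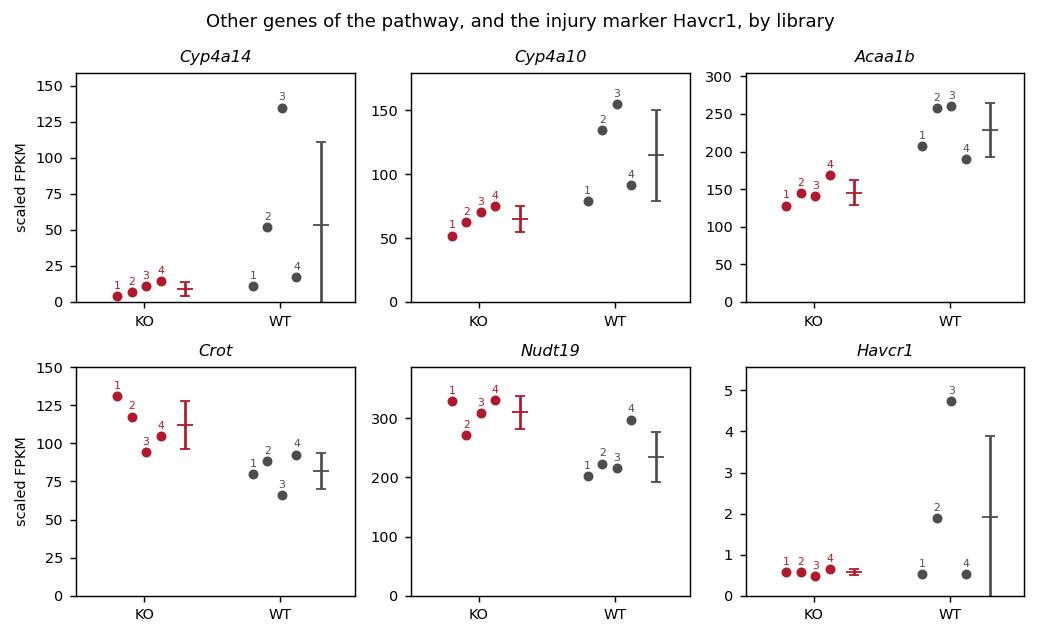
Scaled FPKM of 5 further genes of the pathway and of the injury marker Havcr1 in each library, KO left of WT, with the mean and SD (n = 4), on linear axes that start at 0; the lower error bars of Cyp4a14 and Havcr1 in WT run past 0 and are cut off there. Acaa1b and Cyp4a10 are lower in all 4 KO libraries, Crot is higher in all 4, and the WT spread of Cyp4a14 and Havcr1 comes from replicates 2 and 3.

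Several other measures moved with these genes, and their part in the result was not tested. Of 12 convoluted proximal tubule markers, 6 were lower and none higher at an unadjusted p under 0.05. Of all genes tested, 8.26% were lower and 7.18% higher by this measure. The summed level of the 12 was 6532 to 7238 scaled FPKM in KO kidneys and 7533 to 7922 in WT kidneys. Of 9 markers of the straight segment, 5 were higher and none lower, with sums of 1238 to 1448 in KO kidneys and 816 to 1186 in WT kidneys. The libraries of the 2 genotypes did not overlap in either sum. A list of 10 male-biased kidney genes, 3 of them also in the straight-segment list, was drawn up with earlier results of these data known. All 10 had a log2 fold change above 0, as did 6952 of the 14022 genes tested. At an unadjusted p under 0.05, where 7.18% of all genes tested were higher, 8 of these 10 were. Their mean log2 deviation was 0.19 to 0.64 in KO libraries, and -0.09, -0.37, -0.88 and 0.09 in WT replicates 1 to 4, so WT replicates 2 and 3, the highest for fatty acid oxidation, were the lowest here. The summed level of 8 tubule injury genes was 351 to 458 scaled FPKM in KO kidneys and 336 to 713 in WT kidneys, with WT replicate 3 the highest. For fat tissue, the sum of 7 markers was 0.369 to 1.95 scaled FPKM in KO kidneys and 0.241 to 6.31 in WT kidneys. The adipocyte gene Adipoq was at 0 in KO replicate 4 and in WT replicate 4, and at most 1.21, in WT replicate 3. Of 8 intercalated cell markers 5 were lower at an unadjusted p under 0.05, with sums of 95.5 to 108.9 scaled FPKM in KO kidneys and 115 to 128 in WT kidneys. By the same measure 1 marker was lower among 4 of principal cells, 6 of endothelium and 8 of leukocytes each, and none was lower or higher among 5 each of the thick ascending limb, distal convoluted tubule and podocytes and 6 of fibroblasts and smooth muscle. None of the lists named here held a gene that passed the adjusted threshold.

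Base composition moved with the fold change over all genes. Across the genes tested, Spearman's rho between GC content and log2 fold change was -0.44, and the median ran from 0.09 in the 2790 genes of lowest GC content to -0.10 in the 2790 of highest. Genes are not independent replicates, and this is a description of these libraries. The 35 genes had a median GC content of 48.2%, near the 49.9% of all genes. Split into the same 5 groups by GC content, from low to high, 3 of 6, 8 of 10, 8 of 8, 8 of 9 and 2 of 2 of them were below 0. With trends in GC content and length removed from each library, 14 were lower and 1 higher at an unadjusted p under 0.05. Of all genes, 7.06% were then lower and 4.32% higher. The median of the 35 was -0.10, where that of all genes was -0.009.

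**Figure D5:**
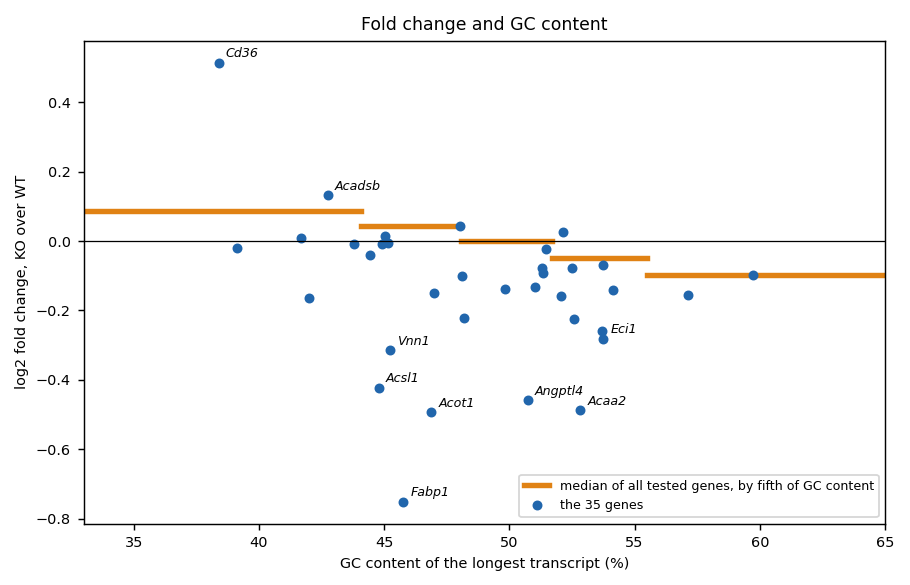
Log2 fold change (KO over WT) of the 35 genes against their GC content in percent, with the median of all tested genes in each of 5 equal groups by GC content. The medians of all genes run from 0.09 to -0.10, and 29 of the 35 genes lie below 0.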

How the data were processed

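The deposited table gave FPKM per gene and library on build mm10, per the file headers; the submitters' processing notes name, without roles, CASAVA, HTSeq 0.6.1, DESeq2 and STAR 2.5. FPKM times gene length gave whole read numbers for 100% of values at a tolerance of 0.01, and their sums over genes supplied the read totals above. Here FPKM was divided by a median-ratio factor per library, and genes with a mean of at least 0.5 scaled FPKM (14022 of 23386, all 35 described here) were tested on log2(scaled FPKM + 0.5) with limma 3.58.1 (R 4.3.3; empirical Bayes with trend, two-sided, Benjamini-Hochberg adjustment), 4 KO against 4 WT libraries with genotype as the only term. The procedure was tested on simulated reads with a common spread for all genes and no trend in GC content, unlike these libraries. The outcome is not reported here. Libraries of 1 genotype are biological replicates, per the labels.

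The 35 genes and the other lists were chosen with earlier results of these data known, so the lists are described by counts and medians and have no p of their own. From the other pathway lists, the genes at an unadjusted p under 0.05 whose groups did not overlap were named, smallest p first and at most 10, besides Pparg, Ppard, Rxra and Hnf4a; genes outside this rule are marked, and a few genes that it names are not reported here. Gene positions are those of the deposited table, GC content and shared 75-base windows came from GENCODE vM21, and promoters from RefSeq. Markers were also listed for the thick ascending limb, distal convoluted tubule, principal and intercalated cells, podocytes, endothelium, leukocytes, and fibroblasts with smooth muscle. Alternatives changed the pseudocount, filter, scaling and trend, used limma's voom on the recovered reads, removed GC and length trends, and left out libraries.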

Additional observations from a re-analysis of the deposited data

Results flagged for a closer look

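Among the 70 groups of 4 libraries examined for the 35 genes, 1 held a library far from its group. Acads, the short-chain acyl-CoA dehydrogenase, was at 87.8 scaled FPKM in KO replicate 1, where the next highest KO library had 81.9, a gap of 0.835 of the group's range against a critical value of 0.829. Chance flags about 1 in 20 such groups.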

How the results depend on the processing

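Under all 18 alternatives no gene of the 35 passed an adjusted p under 0.05, and the lowest adjusted p was 0.0801, for Acaa2 without WT replicate 3. With 1 library left out, 11 to 15 of the 35 genes were lower in KO at an unadjusted p under 0.05. Of all genes, 5.58% to 12.6% were. Under the other alternatives but 1 the number was 13 to 16 (5.64% to 8.97% of all genes). It was 8 without both WT replicates 2 and 3, that exception, chosen after seeing the data, where 4 genes in all were called. Leaving out 1 library gave 5 to 16 called genes in all, 16 without WT replicate 3, and a median log2 fold change of the 35 genes of -0.15 to -0.08. The other pathway genes lower at an unadjusted p under 0.05 numbered 14 to 27, with 14 without WT replicate 2, and 15 with GC and length trends removed.

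Of the 35 genes, 24 kept the sign of their log2 fold change under every alternative, among them all 17 with an unadjusted p under 0.05; for the 11 others the cause was not tested. Without a scaling factor Acadl was at 0.0014. With quantile normalization Acadl was at 0.026, Etfdh at 0.012, Hadhb at 0.0084 and Hnf4a at 0.056. With GC and length trends removed Acads was at 0.012, Etfa at -0.038, Hnf4a at 0.012, Pparg at 0.0024 and Ppargc1a at -0.099. Without both WT replicates 2 and 3 Acadl was at 0.084, Decr1 at 0.042, Etfdh at 0.034, Hadha at 0.021, Hadhb at 0.073, Pdk4 at 0.40 and Pparg at 0.050. With 1 library left out the log2 fold change ran from -0.043 to 0.029 for Acadl, -0.022 to 0.049 for Etfa, -0.028 to 0.013 for Etfdh, -0.076 to 0.041 for Hadhb and -0.074 to 0.037 for Hnf4a. It ran from -0.31 to 0.16 for Pdk4, -0.11 to 0.045 for Ppara, -0.12 to 0.075 for Pparg, -0.023 to 0.063 for Ppargc1a and -0.025 to 0.064 for Slc27a2.

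No paired analysis was possible because the labels record no litter or other pairing of KO with WT animals. The replicate numbers used here do not pair them. The planned edgeR test on recovered reads was not run. Depth limits Fabp1 most, with 6 to 25 reads in a library.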
